A study of Mus musculus with 20 samples.

Results

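H3K4me1 was compared between whole liver and embryonic stem (ES) cells of the mouse, over 1 kb bins of the 19 autosomes. The members are 6 of the 20 libraries of the series, chosen by their labels: 1 liver H3K4me1 library, 3 ES H3K4me1 libraries, and 1 H3 library of each as background. Of 2462446 bins, 279237 (11.3%) were tested, namely those where the mean of the liver level and the ES mean was at least 1 RPM (reads per 1000000 distinct reads). The study profiled histone marks by chromatin immunoprecipitation and sequencing (ChIP-seq) at distal enhancers of ES cells and adult tissues.

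The liver had been perfused. It was dissociated, strained and collected as cells by low-speed centrifugation, and no strain, sex, age, treatment or number of animals is given for it. ES replicate 1 was V6.5, a C57BL/6-129 line, grown for 2 passages off feeder cells. ES replicate 2 was V6.5 carrying a dox inducible 4f2a transgene, off feeders for 1 passage, with no word on whether the inducer was given. ES replicate 3 was j21, an inbred C57BL/6 line, off feeders for 1 passage. The ES H3, H3K4me3 and H3K27ac libraries were of V6.5 after 1 passage and the ES p300 libraries of V6.5 after 2, so the H3, H3K4me3 and H3K27ac set beside ES replicate 3 come from another line. The ES whole cell extract came from cells of a 129 and B6 background after 2 passages off feeders. The same Abcam antibody against H3K4me1 was used in liver and ES cells. Cell identity was not checked against marker genes, because the deposited positions carry no gene names and no annotation of their assembly was used here. In a whole tissue, a mark in fewer cells and less of it in each cell cannot be told apart.

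H3K4me1, monomethylation of lysine 4 of histone H3, is deposited largely by the MLL3 and MLL4 methyltransferases and is found at enhancers and on the shoulders of active promoters. H3K4me3, the trimethylated form, peaks at the start sites of active and poised genes, where it takes the place of H3K4me1. H3K27ac, written by the acetyltransferases p300 and CBP, sets active enhancers apart from those that carry H3K4me1 alone. Total H3, recovered whatever its modification, gives the background of nucleosomes and of chromatin recovery.

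The liver H3K4me1 library held 7319342 distinct reads on the autosomes, against 9946681, 9390069 and 6197971 in ES replicates 1, 2 and 3. The H3 libraries held 4283500 in liver and 9382196 in ES cells. The H3K4me3 libraries, which define the bins with and without that mark, held 7894000 in liver and 2319684 in ES cells. Repeated positions were 13.2% of the reads of the liver H3K4me3 library and 70.0% of those of the ES one, so the ES H3K4me3 calls rest on fewer distinct fragments.

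Liver and ES cells carried H3K4me1 at largely different places. H3K4me1 was higher in liver at 90888 bins (32.5% of tested bins) and lower in liver at 83209 bins (29.8%), together 62.3% of tested bins, by limma's moderated test with a Benjamini-Hochberg adjusted p under 0.05 and a difference of at least 2-fold. At each called bin the liver level lay outside the range of the 3 ES libraries, which the rule for calls all but requires. By fold alone, liver was at least 2-fold above each ES library at 78902 bins (28.3%) and at least 2-fold below each at 74285 bins (26.6%). Between single libraries, liver was at least 2-fold from ES replicates 1, 2 and 3 at 65.1%, 65.6% and 67.6% of tested bins. Pairs of ES libraries were that far apart at 3.88% (replicates 1 and 2), 10.4% (1 and 3) and 7.94% (2 and 3) of the same bins. These pairs are not on equal terms with the liver pairs. The filter lets in bins through liver alone or through ES cells alone, which favours differences between liver and ES libraries.

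These p-values rest on the spread of 3 ES libraries, with 2 residual degrees of freedom, and the single liver library is assumed to vary as an ES library does; permuting 1 against 3 libraries cannot give a one-sided p below 0.25. The filter let in 45964 of the higher bins through liver alone, with an ES mean under 0.5 RPM, and 58395 of the lower bins through ES cells alone, with liver under 0.5 RPM, so these bins had to differ. With no filter 2026994 bins were tested and limma called 0, with 188713 higher and 197805 lower at an unadjusted p under 0.05, against 99225 and 89665 with the filter. A filter at 2 RPM gave 55368 higher and 26362 lower bins of 125856 tested, and limma-voom gave 54882 lower bins. The liver library held no read at 16110 of the lower bins (19.4%), while 663 of the higher bins (0.729%) held no read in any ES library.

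Bins marked with H3K4me1 were those with at least 2 RPM and at least 3-fold over H3 of the same cells. There were 124856 marked bins in liver, against 116107, 117859 and 144070 in ES replicates 1, 2 and 3. Of the liver bins, 61.03% were marked in no ES library. All 3 ES libraries marked 76906 bins, of which 30.8% were marked in liver too. Of these shared ES bins 62.5% were called lower in liver and 6.29% were called higher.

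At bins with H3K4me3, taken as at least 4 RPM of that mark in liver or ES cells, the calls went almost wholly one way. Of 37439 such bins 32077 were tested. H3K4me1 was higher in liver at 13896 (43.3%) and lower at 1068 (3.33%), so that 92.9% of the calls were higher. The other 53.3% of the tested bins were called neither way. H3K4me3 was present in liver only at 14499 of the 37439 bins, in ES cells only at 3843 and in both at 19097. Without H3K4me3, the calls were nearly balanced: of 247160 tested bins 76992 (31.2%) were higher in liver and 82141 (33.2%) were lower. The median log2 difference, liver minus ES, was 0.96 with H3K4me3, −0.062 without it and 0.18 over all tested bins. The plot of liver against ES levels shows a cloud shifted above the diagonal for bins with H3K4me3, and a lobe on each side of it for bins without.

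Scaling moved the zero of these differences. The median over all tested bins became −0.011 with a trimmed mean of M-values and 0.54 when libraries were scaled to unmarked bins, and the median without H3K4me3 became −0.25 and 0.29, so its sign depends on the scaling. The median with H3K4me3 stayed above the median without it by 1.03 in the analysis reported here and by 0.51 to 1.21 under the alternatives. The 1068 lower bins with H3K4me3 became 657 without ES replicate 2 and 1624 without ES replicate 3.

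**Figure D1:**
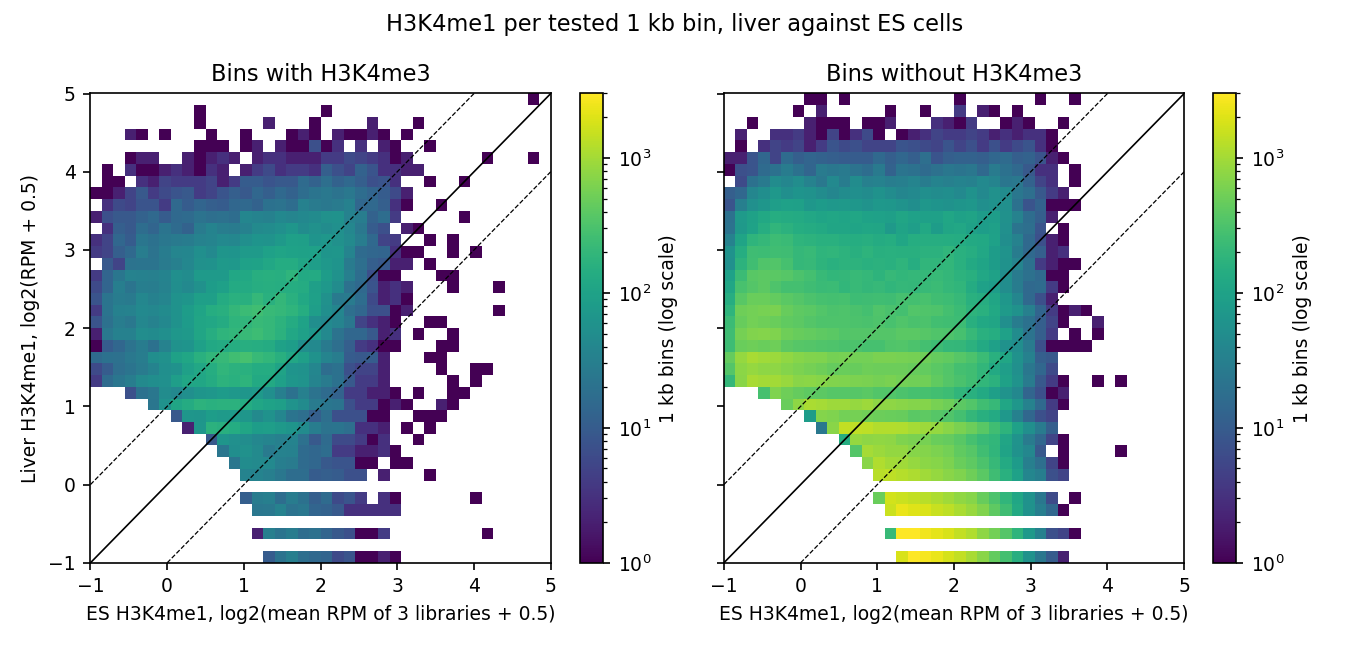
Liver H3K4me1 (log2 of RPM + 0.5, y axis) against the ES mean of 3 libraries (log2 of mean RPM + 0.5, x axis) for each tested 1 kb bin, with bins carrying H3K4me3 on the left and bins without it on the right. Colour gives the number of bins on a log scale, the solid line marks equal levels and dashed lines mark a 2-fold difference. Low liver values fall in bands because they are whole reads, and the empty lower left corner is the filter of 1 RPM. The median log2 difference is 0.96 on the left and −0.062 on the right.

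The mean H3K4me1 level at all bins with H3K4me3, tested or not, was 3.71 RPM in liver, against 1.55, 1.93 and 1.69 RPM in ES replicates 1, 2 and 3. H3 at the same bins was 0.536 RPM in liver and 0.498 RPM in ES cells. Liver thus exceeded each ES library at these bins while H3 was nearly level. Where H3K4me3 was present in liver only (14499 bins), H3K4me1 averaged 4.65 RPM in liver against 1.76, 1.90 and 2.08 RPM in ES cells, and 6413 of 13094 tested bins were higher and 273 lower. Where H3K4me3 was present in both (19097 bins), H3K4me1 averaged 3.30 RPM in liver against 1.33, 1.86 and 1.27 RPM in ES cells, and 6891 of 15775 tested bins were higher and 84 lower. These shared sites thus also carried more H3K4me1 in liver on average, though 55.8% of their tested bins were called neither way. Whether they are promoters was not tested.

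Sites with H3K4me3 in ES cells only behaved differently. At these 3843 bins H3K4me1 averaged 2.23 RPM in liver, within the ES range of 1.83, 2.38 and 2.29 RPM, and of 3208 tested bins 592 were higher in liver and 711 were lower. The median log2 difference there was 0.12, against 1.03 at bins with H3K4me3 in liver only and 1.01 at bins with it in both.

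H3K4me1 varied with the strength of H3K4me3 in both kinds of cell. Sorted by liver H3K4me3, liver H3K4me1 averaged 4.64 RPM at bins of 1 to 2 RPM of H3K4me3 and 4.84 RPM at bins of 4 to 8 RPM. It averaged 2.50 RPM at bins of 32 to 64 RPM and 1.498 RPM at bins above 64 RPM. Strong liver H3K4me3 thus went with less H3K4me1, though liver stayed above ES replicates 1 and 3 there.

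Sorted by ES H3K4me3, the 3 ES libraries differed most at strong H3K4me3. At bins of 4 to 8 RPM of ES H3K4me3, H3K4me1 averaged 1.90, 2.34 and 2.23 RPM in ES replicates 1, 2 and 3. At bins of 32 to 64 RPM it averaged 0.827, 1.55 and 0.497 RPM. Liver at these bins averaged 2.16 RPM, above each ES library, of which replicate 2 held the most H3K4me1 and replicate 3 the least. In the 185 bins above 64 RPM of ES H3K4me3 the levels were higher again, at 3.08 RPM in liver against 1.23, 2.65 and 1.55 RPM in ES replicates 1, 2 and 3, so the level did not fall steadily with H3K4me3 and replicate 1 was lowest there.

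Around H3K4me3 domains, made by joining bins with the mark, the difference depended on where H3K4me3 was found. Inside the 4651 domains present in liver only, H3K4me1 averaged 4.55 RPM in liver against 1.54 ± 0.216 RPM in ES cells (SD, n = 3). At 1 kb outside the edge it was 3.14 RPM in liver against 1.23 ± 0.111 RPM, and at 20 kb 0.669 RPM against 0.538 ± 0.0330 RPM, so the excess faded with distance and was still seen at 20 kb.

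At the 1999 domains present in ES cells only, the level inside the domain hid a deficit on its shoulders. Inside, H3K4me1 averaged 1.85 RPM in liver against 2.00 ± 0.350 RPM in ES cells (SD, n = 3), a difference smaller than the spread of the ES libraries. At 1 kb outside it was 0.840 RPM in liver against 2.31 ± 0.237 RPM, 0.364 of the ES mean. At 2 kb the ratio was 0.329 and at 20 kb still 0.435. Of the tested bins at 1 and 2 kb, 61.8% and 69.1% were lower in liver, and H3 there was 0.540 and 0.566 RPM in liver against 0.567 and 0.584 RPM in ES cells.

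At the 10984 domains present in both, the liver excess was narrow. H3K4me1 inside them averaged 3.66 RPM in liver against 1.76 ± 0.229 RPM in ES cells (SD, n = 3). At 1 kb it was 2.23 RPM against 1.91 ± 0.0555 RPM, and at 2 kb 1.28 RPM in liver against 1.28 ± 0.0378 RPM. From 3 to 20 kb liver was below the ES mean, at 0.881 of it at 20 kb. ES cells peaked on the shoulder of these domains in replicates 1 and 3 and inside them in replicate 2, whereas liver was highest inside.

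**Figure D2:**
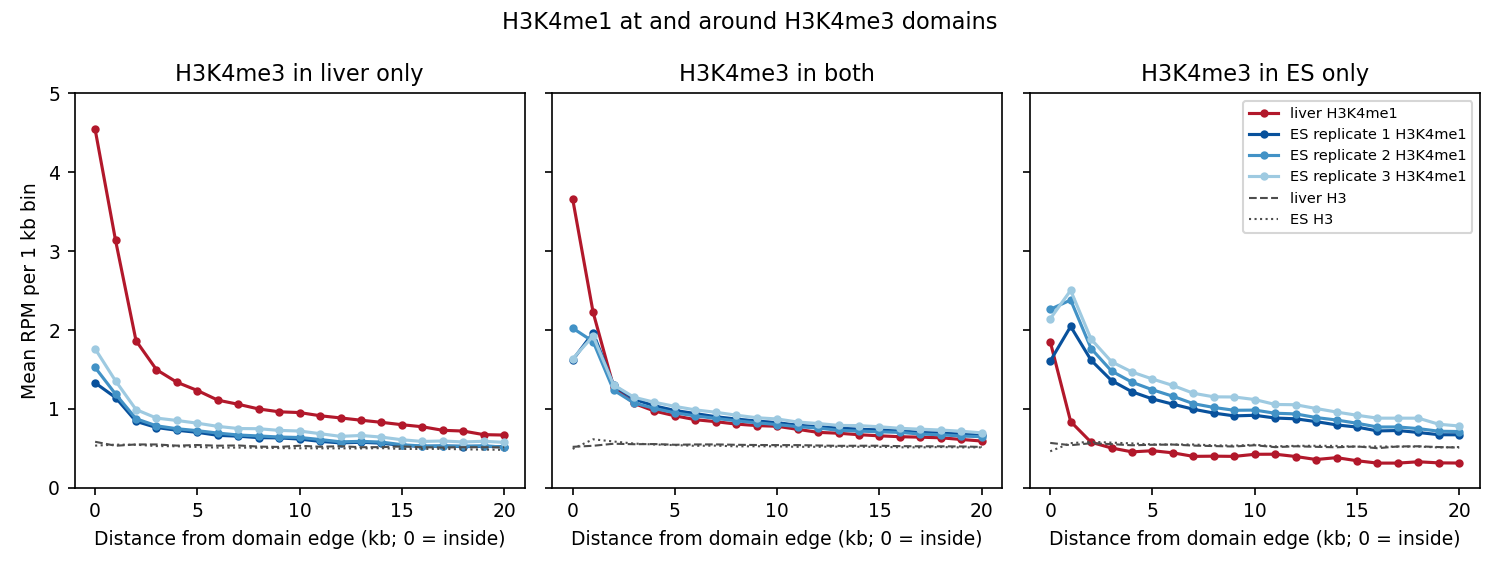
Mean H3K4me1 (RPM per 1 kb bin, y axis) by distance from the edge of H3K4me3 domains (kb, x axis, 0 being inside), for domains with H3K4me3 in liver only, in both and in ES cells only. Red is liver, the 3 blues are ES replicates 1 to 3, and the grey broken lines are H3. Liver lies above the ES libraries across the left panel, only near the domain in the middle panel, and below them from 1 kb outwards in the right panel.

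H3K27ac, which the choice of bins did not use, went the same way as H3K4me1 at bins without H3K4me3. Of the 76992 bins higher in liver, 50.8% were marked with liver H3K27ac (Wilson 95% interval 50.4 to 51.1%) and 3.30% were marked in both ES H3K27ac libraries. Of the 82141 lower bins, 1.00% were marked in liver and 33.3% in both ES libraries (33.0 to 33.6%), with 41.8% in ES H3K27ac replicate 1 and 38.7% in replicate 2. At the 88027 tested bins called neither way, the shares were 15.4% in liver and 15.1% in both ES libraries. ES H3K27ac replicates 1 and 2 alone marked 19.9% and 19.3% of them. A mark in both ES libraries is a stricter rule than a mark in the 1 liver library. The liver H3K27ac library held 5049578 distinct reads, against 8766359 and 8403078 in ES cells. The Wilson intervals cover counting error only, and neighbouring bins are not independent.

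Many changed bins carried no H3K27ac mark, though a smaller share than of the bins called neither way, and acetylated shares depended on the filter. Of the higher bins 48.1% were marked with H3K27ac in neither liver nor ES cells, and of the lower bins 52.6%. Among the bins called neither way this share was 67.7%. With a filter of 2 RPM on H3K4me1, the share of higher bins marked with liver H3K27ac was 70.6%, in place of 50.8%, and that of lower bins marked in both ES libraries 62.2%, in place of 33.3%. With H3K27ac taken at 3 RPM these shares were 39.3% and 21.1%. Where H3K4me1 was marked in liver and in all 3 ES libraries without H3K4me3 (18629 bins), H3K27ac was marked in liver at 50.5% and in both ES libraries at 49.8%. It was marked in liver and in no ES library at 14.4% of those bins. The ES libraries also differed from each other there, with 60.0% marked in H3K27ac replicate 1 and 55.4% in replicate 2. No difference in acetylation is therefore read from the 14.4%.

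The H3K27ac level followed the size of the H3K4me1 difference. At bins without H3K4me3 where H3K4me1 was more than 8-fold lower in liver (5904 bins), liver H3K27ac averaged 0.148 RPM, against 5.08 and 4.54 RPM in the 2 ES libraries. At bins where it was more than 8-fold higher (12042 bins), liver H3K27ac averaged 7.34 RPM, against 0.418 and 0.370 RPM in ES cells. H3 at those higher bins was 0.628 RPM in liver and 0.608 RPM in ES cells, and at the lower bins 0.683 and 0.666 RPM. The ES p300 libraries, profiled in ES cells alone, averaged 3.12 and 2.86 RPM at the bins more than 8-fold lower in liver and 0.615 and 0.570 RPM at those more than 8-fold higher.

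Bins with H3K4me3 were acetylated more often. Of the 13896 higher bins 77.2% were marked with H3K27ac in liver and 52.0% in both ES libraries. Of the 1068 lower bins 29.3% were marked in liver and 79.8% in both ES libraries.

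H3, the background, was close between liver and ES cells at called bins. It averaged 0.602 RPM in liver and 0.595 RPM in ES cells at the higher bins without H3K4me3, and 0.653 and 0.617 RPM at the lower ones. Liver and ES H3 were at least 2-fold apart at 11.6% of the higher bins, 11.4% of the lower bins and 11.4% of the bins called neither way. With such bins left out, 80359 of the higher calls and 73659 of the lower calls were still made.

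Called bins of one direction, joined across a gap of at most 1 bin, formed 41047 domains higher in liver and 35969 lower. The median width was 1 kb in both directions, and the mean was 2.36 kb for higher and 2.49 kb for lower domains. At least 10 kb was reached by 992 higher and 1007 lower domains, and the widest spanned 88 and 58 kb. Domains of at least 5 kb were 11.1% of the higher and 12.9% of the lower domains, and held 36.5% of the higher and 39.5% of the lower bins. Those of at least 10 kb held 14.7% and 15.3% of the bins.

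Width differed with H3K4me3. Of the higher domains, 30839 held no bin with H3K4me3 and averaged 2.11 kb, and 10208 held one or more and averaged 3.11 kb. Of the lower domains, 34812 held none and averaged 2.37 kb, and 1157 held one or more and averaged 6.03 kb with a median of 4 kb. Among the lower domains with H3K4me3, 46.1% were at least 5 kb wide, against 11.8% of those without. A wider domain has more bins in which H3K4me3 can be found, which these shares include.

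Domains wider than 1 kb were more acetylated. In higher domains without H3K4me3, liver H3K27ac averaged 1.65 RPM per kb at a width of 1 kb, 3.11 at 2 to 4 kb, 4.54 at 5 to 9 kb, 5.49 at 10 to 19 kb and 5.18 at 20 kb or more. Liver H3K4me1 in the same classes averaged 3.59, 4.53, 5.11, 5.52 and 5.27 RPM per kb. In lower domains, H3K27ac of ES replicate 1 averaged 1.52, 2.13, 3.10, 4.07 and 4.93 RPM per kb in those classes, while liver H3K27ac lay between 0.233 and 0.324 RPM per kb. Both marks were thus denser in wide than in 1 kb domains, in lower domains up to the widest class and in higher domains up to 10 to 19 kb; the widest higher class held 35 domains.

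Domains marked in each library alone were compared at equal depth, with each library thinned to 6197971 distinct reads. Without H3K4me3, liver had 33089 domains with a mean width of 2.15 kb, against 2.40 ± 0.0639 kb in ES cells (SD, n = 3; 2.35 to 2.47 kb). Liver had 505 domains of at least 10 kb, against 831 to 1306 in the ES libraries, and covered 71.2 Mb, against 82.0 to 113 Mb. For these domains without H3K4me3, the liver value lay below each ES library in all 3 measures. With domains marked at 3 RPM this held for the mean width and the number of at least 10 kb, but liver then covered 51.2 Mb against 49.0, 49.1 and 70.2 Mb, above ES replicates 1 and 2. Under the alternatives run, the liver mean width without H3K4me3 stayed below the ES mean by 0.15 to 0.51 kb.

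With H3K4me3 the order of the number and the covered length turned round. Liver had 14459 such domains, against 7508 to 9144 in the ES libraries, and they covered 62.0 Mb against 37.1 to 44.5 Mb. Their mean width was again smaller in liver, at 4.29 kb against 4.96 ± 0.112 kb in ES cells (SD, n = 3). The widest liver domain was 106 kb, against 55 to 83 kb in the ES libraries. Without this split, liver had 47548 domains covering 133 Mb, within the ES ranges of 44077 to 54566 domains and 124 to 158 Mb. The mean width was then still below each ES library, but with domains marked at 3 RPM it was 2.49 kb, within the ES range of 2.39 to 2.49 kb. Domains were sorted by H3K4me3 of either cell type, and bins with it in liver only outnumbered those with it in ES cells only. The part of this sorting in the orders above was not tested.

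**Figure D3:**
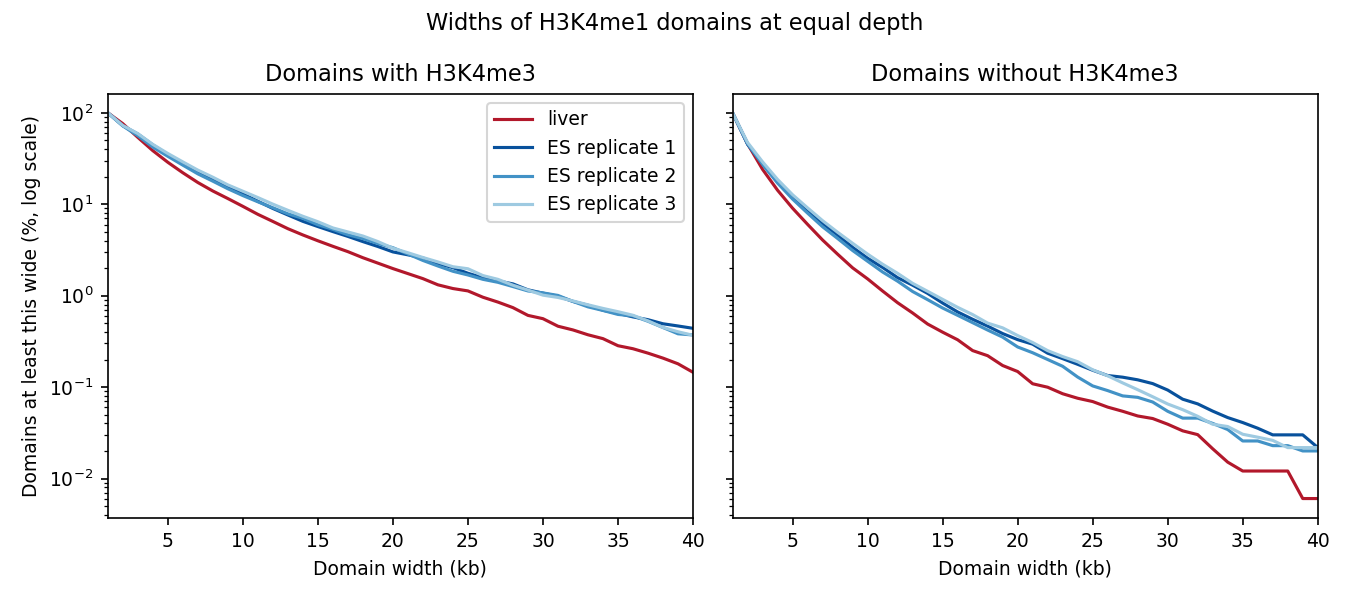
Share of H3K4me1 domains at least as wide as the value on the x axis (kb), in percent on a log scale, for domains with H3K4me3 (left) and without (right), each library thinned to the same number of reads. Red is liver and the 3 blues are ES replicates 1 to 3. At 10 kb liver lies at 9.48% on the left and 1.53% on the right, below the ES libraries at 12.4 to 13.9% and 2.38 to 2.85%.

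Changed bins lay near bins changed the same way. Without H3K4me3, 53.7% of the tested bins found 10 kb from a higher bin were higher, 1.72 times the share among all such tested bins. At 10 kb from a lower bin 55.95% were lower, 1.68 times the share. The ratio was 1.33 for higher and 1.37 for lower bins at 50 kb, 1.04 and 1.15 at 200 kb, and 0.941 and 1.11 at 1000 kb. The ratios did not settle at 1: at 2000 kb higher bins were at 0.917 times the share around higher bins and 0.895 times around lower bins, and lower bins at 1.08 times around both. Read against the other direction at the same distance, gains were still more frequent around gains (0.941) than around losses (0.846) at 1000 kb, and losses around losses (1.11) than around gains (1.05).

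Gains and losses avoided each other at short range. Among tested bins without H3K4me3, the share of lower bins at 1 kb from a higher bin was 0.0309 times the share among all such bins. It was 0.384 times at 10 kb, 0.697 times at 50 kb and 0.958 times at 200 kb. At 10 kb from lower bins, the share of higher bins was 0.354 times that among all such bins, and at 200 kb 0.786 times. Bins 10 kb from a higher bin with H3K4me3 were higher at 1.22 times the share, less than around a higher bin without it.

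**Figure D4:**
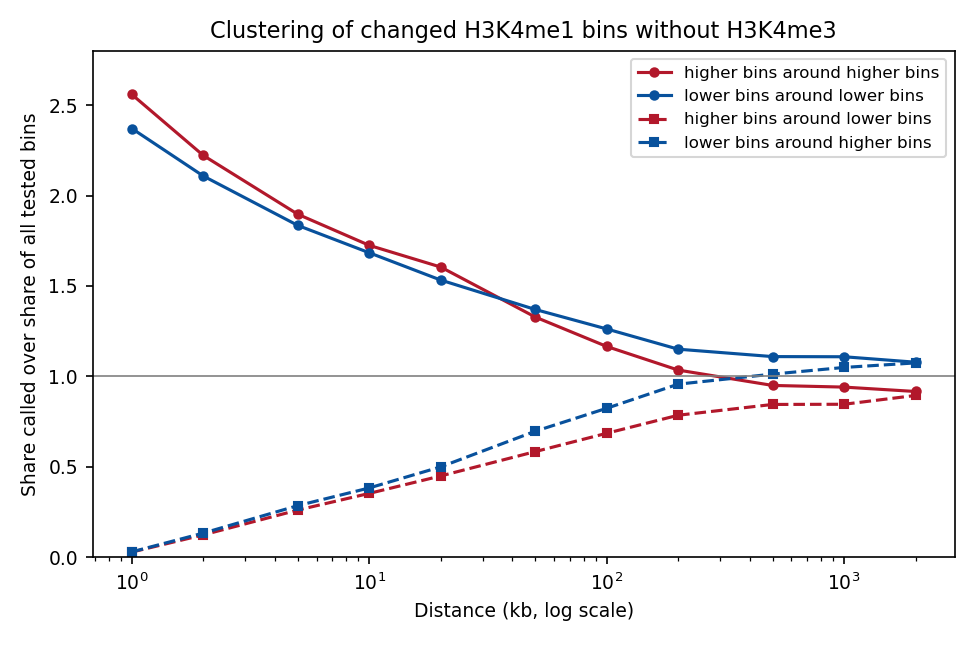
Share of tested bins without H3K4me3 called in a given direction at a given distance (kb, log scale, x axis) from a called bin, over the share among all such bins (y axis). Solid lines are calls around calls of the same direction, dashed lines calls around calls of the other direction, red for bins higher and blue for bins lower in liver. Solid lines start at 2.56 and 2.37 at 1 kb and lie between 0.917 and 1.15 from 200 kb on, while dashed lines start at 0.0309 and 0.0297.

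On the scale of 1 Mb, 1349 windows held at least 50 tested bins. At least 60% of tested bins were higher in 108 of these windows and lower in 79. The tenth of windows with the most calls held 23.3% of the higher and 28.9% of the lower bins, beside 22.0% of the tested bins in the tenth richest in those. The share of tested bins called higher nevertheless ran from 9.07% to 68.4% between the 5th and 95th percentiles of windows, and the share called lower from 7.86% to 61.1%. In windows of 200 kb those with the most calls, taken the same way, held 32.4% of the higher and 35.2% of the lower bins, beside 23.8% of the tested bins. Windows ranked by number of calls also follow the number of tested bins. The 3 with the most higher bins were chr2:27000001-28000000 with 217 of 355 tested bins (61.1%), chr2:167000001-168000000 with 199 of 524 (38.0%) and chr14:24000001-25000000 with 185 of 371 (49.9%). They also held 43, 125 and 56 lower bins. The 3 with the most lower bins were chr11:88000001-89000000 with 285 of 462 (61.7%), chr15:79000001-80000000 with 273 of 432 (63.2%) and chr11:117000001-118000000 with 268 of 572 (46.9%). They also held 31, 37 and 76 higher bins. Over the last of them H3K4me1 was 1.99 RPM per kb in liver, against 2.02, 2.46 and 2.77 in ES replicates 1, 2 and 3. Coordinates are 1-based in mm8, and no gene was assigned to them.

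Domains of one direction also came in runs, with gaps of at most 10 kb between them. There were 1216 runs of 5 or more higher domains, holding 19.7% of all higher domains, and 1303 of 5 or more lower domains, holding 26.1%. The longest higher run, chr4:97238001-97462000, held 25 domains over 224 kb with 104 bins higher and 0 lower. Its H3K4me1 level was 2.52 RPM per kb in liver against 0.257, 0.268 and 0.210 in ES replicates 1, 2 and 3. The longest lower run, chr4:134747001-134972000, held 24 domains over 225 kb with 107 bins lower and 5 higher. Its level was 0.714 RPM per kb in liver against 2.22, 2.59 and 2.99 in ES cells.

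The next 2 runs in each direction were of like length. The higher ones were chr9:121859001-122055000 (196 kb, 22 domains) and chr7:98932001-99106000 (174 kb, 15 domains). The lower ones were chr4:139300001-139522000 (222 kb, 25 domains) and chr11:97301001-97514000 (213 kb, 25 domains). The higher run on chromosome 7 had the highest liver level of the 3, at 4.69 RPM per kb, against 0.605, 0.600 and 0.636 in ES cells, and its H3K27ac was 6.89 RPM per kb in liver against 0.453 and 0.436 in ES cells.

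Chromosomes differed little. Among tested bins without H3K4me3 the share of higher bins ran from 25.8% on chromosome 11 to 37.4% on chromosome 6, and the share of lower bins from 28.9% on chromosome 14 to 38.2% on chromosome 17. H3 of liver over ES cells was between 0.977 and 1.03 on each chromosome but chromosome 8, where it was 0.852, with 0.862 in the libraries of whole cell extract. On chromosome 8, total H3K4me1 in liver was 0.934, 1.06 and 1.04 of that in ES replicates 1, 2 and 3, and 31.3% of tested bins were higher and 32.2% lower. The part of these totals in the calls on chromosome 8 was not tested. On chromosome 19 total H3K4me1 in liver was 1.16, 1.14 and 1.13 of that in ES replicates 1, 2 and 3, with H3 at 0.991. On chromosome 17 it was 0.959, 0.914 and 0.888, with H3 at 0.995.

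The widest domain higher in liver without H3K4me3 was chr11:16675001-16746000, 71 kb wide. It held 2325 reads in liver, against 281, 243 and 152 in ES replicates 1, 2 and 3, which is 4.47 RPM per kb against 0.398, 0.364 and 0.345. The liver level was 12.1 times the ES mean, and the groups were far apart. The mean log2 difference over its bins was 2.59 (mean SE 0.386), and 65 of them were called. H3 was 0.480 RPM per kb in liver and 0.488 in ES cells, and H3K27ac was 3.65 in liver against 0.209 and 0.106 in the ES libraries.

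The other wide higher domains behaved alike in H3K4me1 and varied in acetylation. chr14:24337001-24387000 (50 kb) had 9.33 RPM per kb in liver against 0.804, 0.873 and 1.03 in ES cells. chr9:69092001-69140000 (48 kb) had 6.40 in liver against 0.415, 0.379 and 0.316. chr9:48472001-48515000 (43 kb) had 5.63 RPM per kb in liver against 0.278, 0.280 and 0.353 in ES cells. The last of these was the most acetylated, with 14.8 RPM per kb of H3K27ac in liver against 0.324 and 0.246 in ES cells. chr15:3432001-3464000 (32 kb) had 3.50 RPM per kb of H3K4me1 in liver against 0.214, 0.160 and 0.156.

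The largest mean difference among higher domains without H3K4me3 of at least 3 kb was at chr2:151616001-151620000. It held 364 reads in liver against 5, 17 and 6 in ES replicates 1, 2 and 3, a mean log2 difference of 4.09 (mean SE 0.466). The next 4 lay between 3.98 and 4.02, at chr11:120872001-120876000, chr7:142850001-142853000, chr11:67443001-67446000 and chr4:62737001-62745000. All 5 had between 4.68 and 11.2 RPM per kb of H3K27ac in liver and at most 0.713 in an ES library.

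Among higher domains with H3K4me3, chr7:99031001-99055000 joined a large difference to a width of 24 kb. It lies within the run on chromosome 7 and held 2062 reads in liver against 104, 106 and 73 in ES cells, with a mean log2 difference of 3.68 (mean SE 0.450). H3K27ac there was 20.3 RPM per kb in liver against 0.432 and 0.431 in ES cells, and H3K4me3 was 3.86 in liver and 0.234 in ES cells. The largest mean difference in that group was 4.09, at chr4:138569001-138572000, with 312 reads in liver against 11, 10 and 3 in ES cells. H3 over that domain was 1.56 RPM per kb in liver and 0.746 in ES cells. The other 3 were chr19:56330001-56333000, chr15:80506001-80514000 and chr1:182082001-182086000, with mean log2 differences of 3.81, 3.78 and 3.64.

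The widest domain lower in liver without H3K4me3 was chr18:65710001-65768000, 58 kb wide. It held 269 reads in liver against 2449, 2481 and 1689 in ES replicates 1, 2 and 3, which is 0.634 RPM per kb against 4.25, 4.56 and 4.70. Liver reached 0.141 of the ES mean, and the mean log2 difference was −2.32 (mean SE 0.362), with 55 bins called. H3 was 0.644 RPM per kb in liver and 0.649 in ES cells, and H3K27ac was 0.283 in liver against 5.42 and 5.19 in ES cells.

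**Figure D5:**
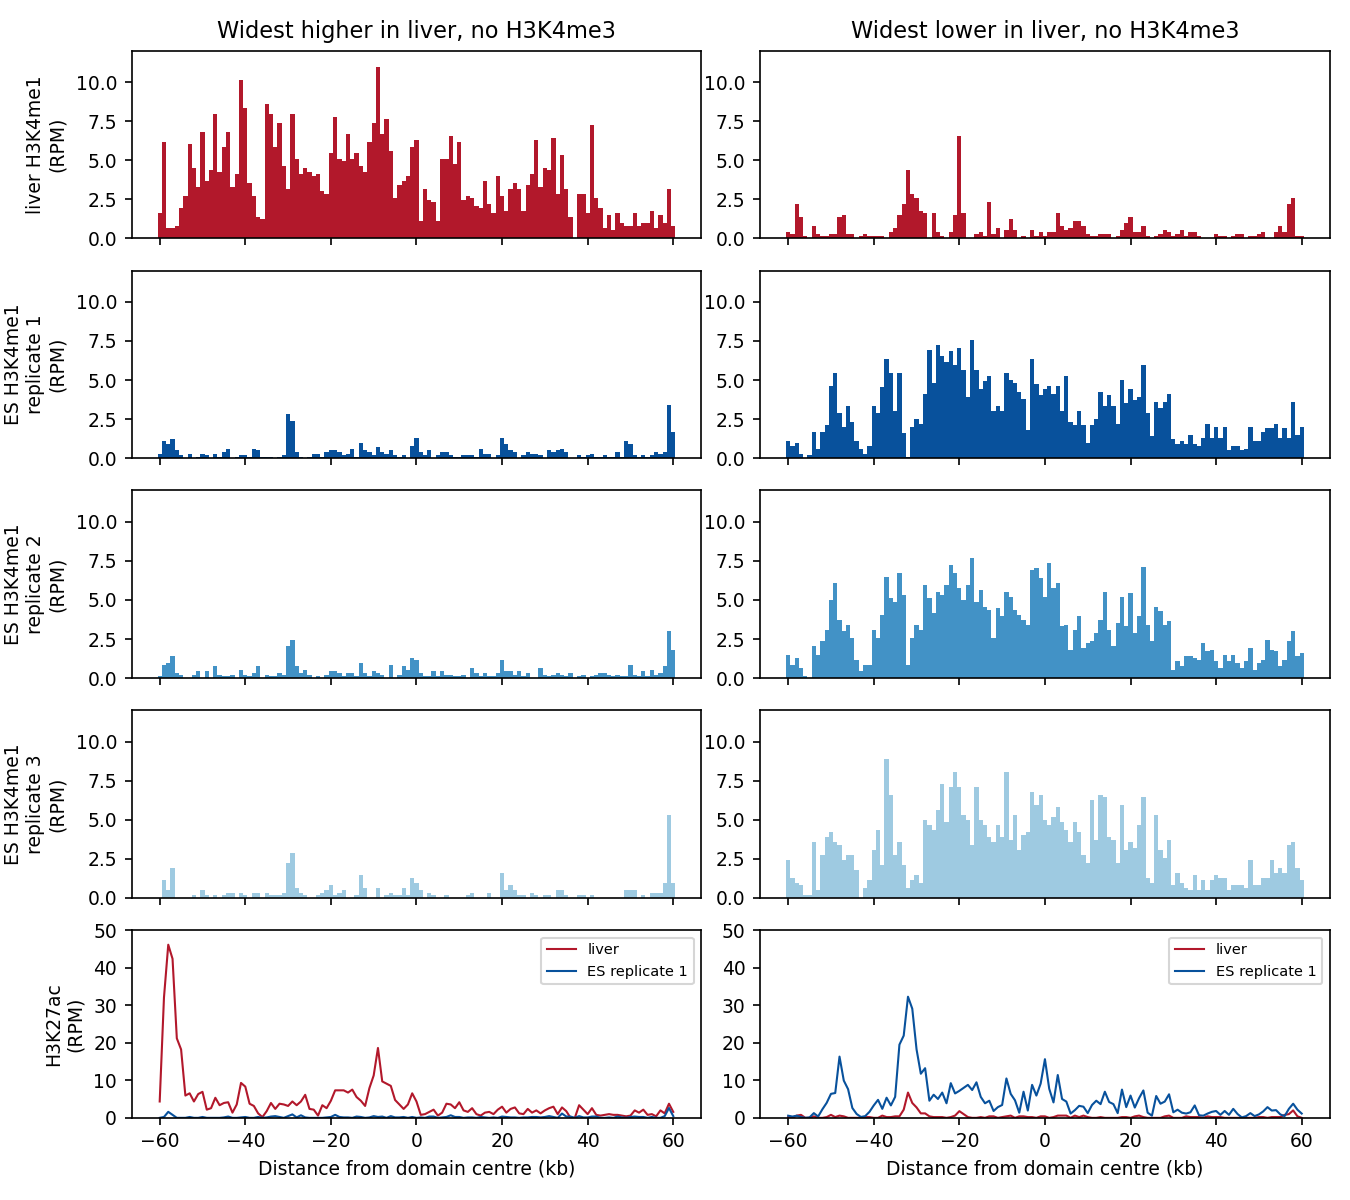
H3K4me1 (RPM per 1 kb bin, y axis) in liver and ES replicates 1 to 3, and H3K27ac in liver and ES replicate 1 (bottom row), by distance from the domain centre (kb, x axis), at the widest domains without H3K4me3 that were higher in liver (left, 71 kb) and lower in liver (right, 58 kb). On the left the liver bars stand at 4.47 RPM per kb over the domain and the ES bars at 0.345 to 0.398, and on the right the liver bars stand at 0.634 and the ES bars at 4.25 to 4.70.

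The other wide lower domains kept between 0.0334 and 0.185 of the ES mean in liver. chr2:172867001-172918000 (51 kb) had 0.956 RPM per kb in liver against 4.32, 5.83 and 5.39 in ES cells. chr10:6033001-6078000 (45 kb) had 35 reads in liver against 1418, 1370 and 874 in ES cells. chr16:8656001-8697000 (41 kb) had 56 reads in liver against 1605, 1502 and 1020. At chr4:139482001-139516000 (34 kb) the ES libraries themselves differed, with 0.177 RPM per kb in liver against 2.97, 5.02 and 4.20 in ES replicates 1, 2 and 3. This last domain lies in the lower run of 222 kb on chromosome 4.

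The largest loss was at chr8:86708001-86711000, with 1 read in liver against 173, 153 and 102 in ES replicates 1, 2 and 3. Its mean log2 difference was −3.43 (mean SE 0.354). At chr8:94810001-94813000 there were 0 reads in liver against 161, 150 and 80 in ES cells. H3 at that domain was 0.934 RPM per kb in liver and 0.782 in ES cells, so the liver background was not low there, and ES p300 was 6.23 and 6.67 RPM per kb. Fitted differences at so few liver reads depend on the 0.5 RPM added before the logarithm. The other 3 were chr14:121550001-121559000, chr18:76750001-76753000 and chr11:116779001-116792000, with 2, 1 and 5 reads in liver.

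The 5 domains with H3K4me3 and the largest losses had between 1 and 25 reads in liver. At chr7:144674001-144678000 there was 1 read in liver against 179, 204 and 141 in ES cells. The widest of them, chr6:30098001-30123000 (25 kb), had 25 reads in liver against 1119, 1331 and 908 in ES cells, with a mean log2 difference of −3.14 (mean SE 0.360) and H3K27ac of 0.0951 RPM per kb in liver against 7.57 and 7.94 in ES cells. The others were chr7:63825001-63843000, chr5:113837001-113842000 and chr7:139787001-139795000, with mean log2 differences of −3.09, −3.05 and −3.05. In these 5 domains H3K4me3 averaged 1.17 to 2.07 RPM per kb in ES cells and at most 0.127 in liver.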

How the data were processed

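The authors deposited, for each library, aligned read positions with a sign for the strand, which are neither counts nor a normalised signal; no label names an aligner or its settings. Per the labels' protocols, chromatin averaged 500 bp after sonication and libraries took 18 PCR cycles and inserts of 100 to 250 nt. The genome build is not named; positions fit the lengths of mm8, which is used here, and 1-based coordinates are given. Each position and strand was counted once, reads were moved 100 bp, bins held 1000 bp, and levels are in RPM, reads per 1000000 distinct autosomal reads. Levels as log2(RPM + 0.5) were tested with limma-trend (limma 3.58.1, R 4.3.3) and Benjamini-Hochberg adjustment, and the rest was computed in Python 3.11.15; the fold changes therefore understate changes of low bins. Depths of 6197971 to 9946681 reads mean that 1 RPM is under 10 reads in a bin, and the ES libraries differ in line, transgene and passages, so their spread may hold these. H3 for the 3-fold rule was averaged over 5 bins. Bins with H3K4me3 rest on 1 library per cell type.

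Named regions are, in each direction, the 5 widest domains without H3K4me3, the 5 of at least 3 kb with the largest mean difference without H3K4me3 and the 5 with it, the 3 windows with the most calls and the 3 longest runs, leaving out domains with H3 2-fold apart (here and for bins, on RPM + 0.5). The members, rules and lists were chosen with earlier results of these data known. Scaling, pseudocount, filter, test, duplicates, bin size, depth, thresholds and the ES libraries used were varied.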

Additional observations from a re-analysis of the deposited data

How the results depend on the processing

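Each of the 30 named regions kept its direction, with at least 1 of its bins still called, under 24 of 25 alternatives. Of these alternatives, 8 leave the calls of bins untouched by construction, and the regions had been picked as extremes of the same data. No bin called in one direction was called in the other under the 24 alternatives that keep bins of 1 kb. With no filter, limma called 0 bins and so 0 domains in both directions; the cause was not tested. A filter at 2 RPM gave 55368 higher and 26362 lower bins (43629 and 25921 without H3K4me3, 441 lower with it), medians of 0.62 without and 1.13 with H3K4me3, 14291 lower domains, 415 higher and 173 lower domains of at least 10 kb, 643 and 334 runs of 5 or more, and 16129 lower bins with ES H3K27ac (27369 as reported); fewer bins were tested, 125856. limma-voom gave 54882 lower bins (54253 without and 629 with H3K4me3), a median of 1.16 with it, 577 lower domains of at least 10 kb and 704 lower runs. The share of calls that were higher without H3K4me3, 48.4%, became 62.7% with that filter and 60.3% with voom, and was between 43.8% and 62.7% over the alternatives; with H3K4me3 it was between 80.5% and 96.7%.

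The median with H3K4me3 was 0.76 with the trimmed mean of M-values, 1.34 scaled to unmarked bins (700 lower bins with H3K4me3), 0.71 with quantile normalization (8464 higher bins with H3K4me3), 1.06 and 0.81 with 0.25 and 1 RPM added, 0.85 with no filter, and 0.75 in bins of 2 kb. The medians without H3K4me3 were −0.25 and 0.29 under the first 2 scalings. Bins of 2 kb gave 24232 higher and 20144 lower domains, 2262 and 2105 of at least 10 kb, and 286 and 306 runs; bin width, smallest domain and gap change together there. With no gap 435 higher and 387 lower domains reached 10 kb and runs numbered 1918 and 1968; with a gap of 3 bins these were 2399, 2546, 451 and 553. H3K4me3 at 2 RPM gave 4903 lower bins with it and a median of 0.84, and at 8 RPM 337. H3K27ac at 3 RPM left 17343 acetylated lower bins.

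Without each ES library in turn, higher bins numbered 74891 to 95262 and lower bins 69908 to 78543, lower bins with H3K4me3 657 to 1624, and the medians were −0.15 to 0.065 without H3K4me3 and 0.92 to 1.03 with it. No paired analysis was possible because liver has 1 library and the numbers of the ES libraries, given in accession order, pair nothing across the groups. These results are limited by the single liver library, by the ES H3K4me3 library of 2319684 distinct reads and by the gene annotation not used here.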

Other observations

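Levels of H3K4me1 in the other cells of the series were read at the changed bins without H3K4me3. At bins higher in liver, the median level was 3.96 RPM in liver, against 0.436 RPM in induced pluripotent stem (iPS) cells and 0.490 RPM in mouse embryonic fibroblasts (MEFs). At bins lower in liver it was 0.273 RPM in liver, against 3.49 RPM in iPS cells and 0.490 RPM in MEFs. The iPS library, 1 library of 2294246 distinct reads, thus stood with the ES libraries at both sets of bins, which those libraries had helped to choose. The iPS cells were derived from MEFs and had 2 passages off feeders. MEF levels were uneven: the mean was 1.51 RPM at the higher and 1.38 RPM at the lower bins.

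Single wide domains departed from these medians. At the higher domain chr14:24337001-24387000, H3K4me1 was 9.33 RPM per kb in liver and 8.36 in MEFs. At the higher domain chr9:48472001-48515000 it was 5.63 in liver and 0.617 in MEFs. At the lower domain chr2:172867001-172918000 it was 0.956 RPM per kb in liver and 11.6 in MEFs, where MEFs exceeded each ES library. At the lower domain chr16:8656001-8697000 it was 0.187 in liver and 0.285 in MEFs. Each of these values comes from 1 MEF library, with no replicate.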
